A study of Mus musculus with 12 samples.

Results

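This account covers 52 genes that lie within 5 Mb of Nr1h4 on mouse chromosome 10, in kidneys of mice in which Nr1h4 was disrupted (FXR KO, here KO) and of wild-type (WT) mice. Nr1h4 encodes the farnesoid X receptor (FXR), a bile acid receptor of the nuclear receptor family. The genes were chosen by position: the gene span in the deposited tables (mm10) had to overlap 84454234 to 94533622, and the gene had to reach 1 TPM in at least 3 of the 12 libraries. TPM, a level scaled to the same total in each library, is the share of a gene's RNA in its library, corrected for gene length. The window held 87 genes, of which 30 were under that level (8 at 0 in each of the 12 libraries) and 57 passed. Nr1h4 itself, Igf1, Cry1, Ndufa12 and Slc25a3 passed the level and were left out by the rule. The 52 members stand among 14488 genes tested and 24532 gene identifiers in the tables. Of the members 48 are protein-coding, 30 lie on the side of lower coordinates and 22 on that of higher coordinates.

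The 12 libraries were made from total RNA of whole kidney and form 4 groups of 3. These are KO given GW4064 (strain label Nr1h4tm1Gonz/J), KO given vehicle (same strain label), WT given GW4064 (C57BL/6) and WT given vehicle (C57BL/6). GW4064 is a synthetic FXR agonist, labelled as given for 6 h, while no time is given for vehicle, and the series' design text has all mice fasted overnight. Age, sex, the vehicle, the genetic background of the KO strain and its number of backcrosses are not stated in the labels. Whether the 3 libraries of a group are separate animals is also not given, so each p-value speaks only of the spread among these samples.

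A targeted allele is inherited together with the DNA around it. When a mutation made in embryonic stem cells of one mouse strain is bred onto another, a stretch around the mutated gene can stay of the first strain, because recombination close to the gene is rare. Genes in such a stretch can then differ between mutant and control through sequence variants of their own, whether or not the disrupted protein regulates them. The origin of the DNA around Nr1h4 in these mice was not tested. KO and WT also carry different strain labels. The position of these genes, the loss of FXR and any other strain difference cannot be told apart as sources of a difference between KO and WT.

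The libraries held 2.86 to 4.27 mapped gigabases (deposited coverage over FPKM), with a value above 0 for 16693 to 17186 identifiers. Nr1h4 (Entrez Gene 20186, chromosome 10, 89454234 to 89533622, minus strand) measured 105, 131 and 134 TPM in KO GW4064, 119.9, 116 and 113 TPM in KO vehicle, 189, 206 and 242 TPM in WT GW4064 and 217, 267 and 249 TPM in WT vehicle. The KO and WT libraries did not overlap, with a mean genotype difference of -0.92 ± 0.08 on the log2 scale (limma adjusted p = 8.83e-06). This value over the whole gene does not tell a truncated transcript from an intact one. Defining kidney markers were abundant: 4 proximal tubule markers summed to 4348 to 4979 TPM in KO GW4064, 5102 to 5463 TPM in KO vehicle, 5111 to 5159 TPM in WT GW4064 and 4940 to 5297 TPM in WT vehicle. The adrenal marker Cyp11b1 was under 0.5 TPM in each library. Some cell type markers moved with genotype. Of the immune pair, Cd74 was higher in KO and Ptprc was not called, and their sum was 173 to 214 TPM in KO GW4064, 192 to 340 TPM in KO vehicle, 123 to 142 TPM in WT GW4064 and 134 to 141 TPM in WT vehicle. In bulk RNA, fewer cells of a type and less RNA per cell cannot be told apart.

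Genotype was compared on vehicle, under GW4064, and as the mean of these 2 differences (6 KO against 6 WT libraries, called here the mean genotype difference). The vehicle and GW4064 differences share no library, but their SE and p-values rest on 1 estimate of spread over all 12 libraries. A gene is called at a limma Benjamini-Hochberg adjusted p under 0.05 over all 14488 genes, differences are KO minus WT on the log2(TPM + 0.5) scale with their standard error (SE), and this scale draws the differences of low genes toward 0. In the mean genotype difference 26 of the 52 members were called (50%), 6 higher and 20 lower in KO. The background over all genes tested was 26.5% called, 7.49% higher and 19.0% lower. On vehicle 16 members (30.8%) were called, 3 higher and 13 lower, against 12.9% of all genes (3.19% higher, 9.73% lower). Under GW4064 20 members (38.5%) were called, 6 higher and 14 lower, against 18.5% of all genes (7.08% higher, 11.4% lower). The median size of the mean genotype difference, regardless of sign, was 0.192 over the members and 0.122 over all genes.

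The members' direction depended partly on scaling. With median-of-ratios scaling of TPM the mean genotype difference was called for 24 members, 9 higher and 15 lower, against 21.7% of all genes (1608 higher, 1540 lower). Over all genes that scaling moved the share of calls that were higher in KO to 51.1%, from 28.3% with TPM as deposited, and on vehicle to 59.5%, from 24.7%. On vehicle it gave 11 members, 4 higher and 7 lower, against 9.66% of all genes (832 higher, 567 lower). Under GW4064 it gave 16 members, 6 higher and 10 lower, against 17.6% of all genes (1248 higher, 1308 lower). Quantile scaling was run as well, and results that changed with both scalings are said below to change under either rescaling, with the median-of-ratios value first. Single libraries moved the 2 separate counts. The vehicle count was 8 without WT vehicle replicate 1, 9 without WT vehicle replicate 3 and 7 without KO vehicle replicate 2. The GW4064 count was 11 without WT GW4064 replicate 1, 11 without WT GW4064 replicate 3 and 13 without KO GW4064 replicate 3. The count for the mean genotype difference was 24 to 27 over all 12 removals, so single genes are described by it first.

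**Figure D1:**
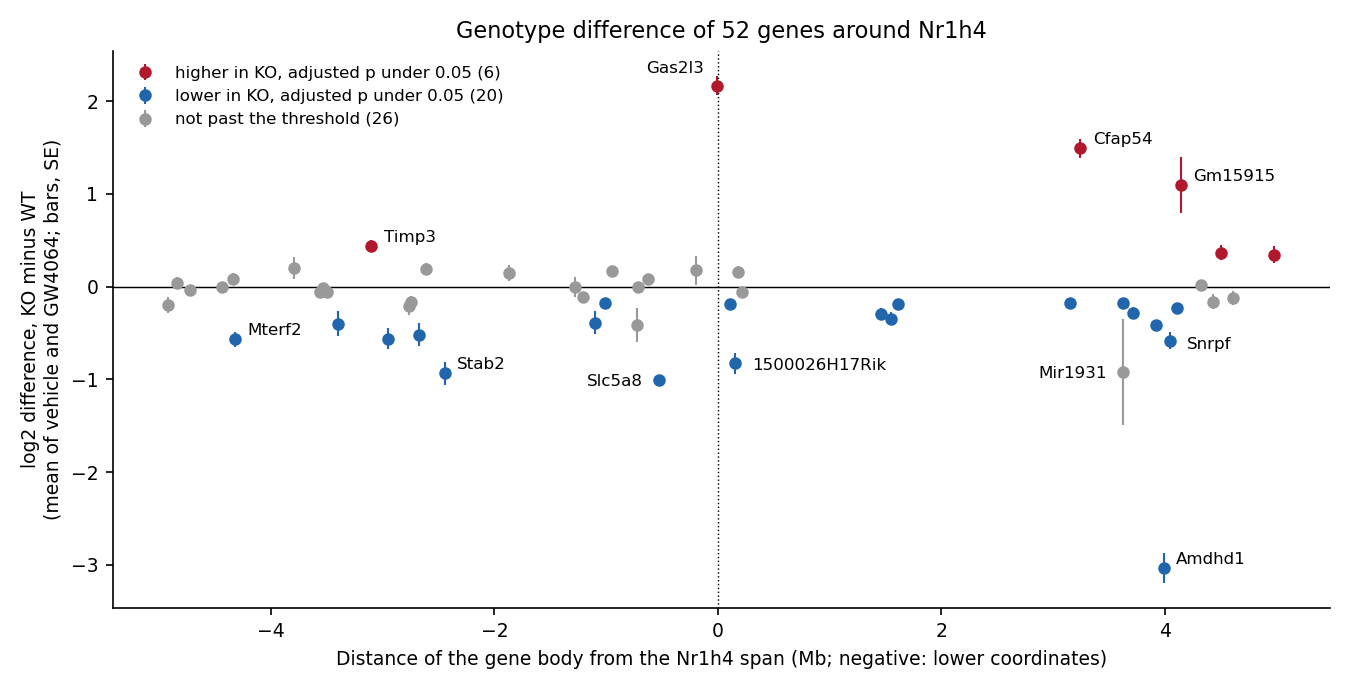
Mean genotype difference (log2 scale, KO minus WT, y axis, bars SE) of the 52 genes against the distance of their gene body from the Nr1h4 span in Mb (x axis). Red points are called higher in KO (6), blue points called lower (20) and grey points not called (26). Gas2l3 stands beside Nr1h4 at 2.17 and Amdhd1 stands 3.99 Mb away at -3.03.

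Agreement between the vehicle and GW4064 differences was described next, with calls that share 1 estimate of spread. The sign of the difference was the same on vehicle and under GW4064 in 44 of 52 members (84.6%), against 64.6% of all genes. Called in both and in the same direction were 11 members (21.2%), against 5.86% of all genes: Syn3, Stab2, Slc5a8, Gas2l3, 1500026H17Rik, Ikbip, Cfap54, Lta4h, Amdhd1, Snrpf and Ntn4. There were 14 members called in 1 of the comparisons and 27 called in neither. That count of 11 was 8 (15.4%) when each comparison was fitted on only its 2 groups, against 4.0% of all genes. Under either rescaling it was also 8, against 4.9% and 4.83% of all genes. The count was 6 to 10 when 1 library was left out. It was 7 without WT vehicle replicate 1 or 2, WT GW4064 replicate 3 or KO GW4064 replicate 3, and 6 without KO vehicle replicate 2. Slc5a8, Gas2l3, Cfap54, Lta4h and Amdhd1 were called in both comparisons under each of the 12 removals. In 16 members (30.8%) the 6 KO and 6 WT libraries did not overlap in TPM, 13 with KO lower and 3 with KO higher, against 10.7% of all genes. The mean genotype difference was called and at least 2-fold (1 on the log2 scale) in 5 members (9.62%), against 1.09% of all genes: Gas2l3, Cfap54 and Gm15915 higher and Amdhd1 and Slc5a8 lower. Slc5a8 lies just past that fold, and the count was 4 to 6 over the removals and over pseudocounts of 0.1 and 1. It was 3 with FPKM in place of TPM and 2 when 1 TPM was required in all 12 libraries, a filter that left Cfap54, Amdhd1 and Gm15915 untested.

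**Figure D2:**
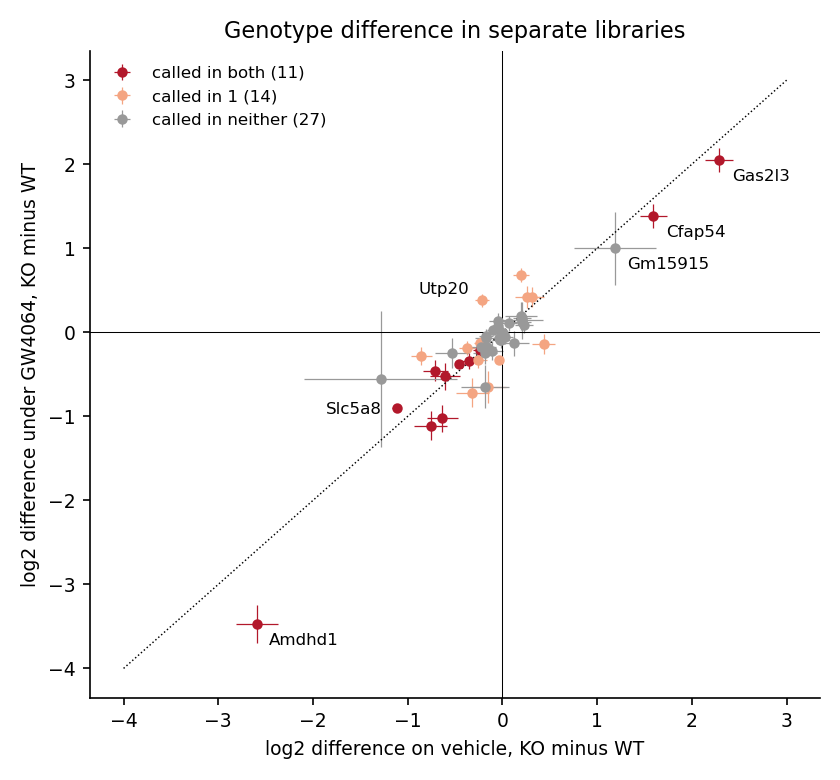
Genotype difference (log2 scale, KO minus WT) of each of the 52 genes on vehicle (x axis) and under GW4064 (y axis), from libraries that the axes do not share; bars are SE and the dotted line marks equal values. Gas2l3, Cfap54 and Slc5a8 lie near the line and far from 0, Amdhd1 lies far from 0 and off the line (-2.59 on vehicle and -3.47 under GW4064), and Utp20 lies on opposite sides of 0.

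Gas2l3 is the gene next to the disrupted one. It encodes a protein that links actin filaments with microtubules and acts in cytokinesis. It lies 10.3 kb from Nr1h4 (Entrez Gene 237436, 89408823 to 89443967, minus strand) on the same strand, beyond the 3′ end of Nr1h4. Gas2l3 measured 13.4, 13.1 and 14.7 TPM in KO GW4064, 12.2, 14.6 and 14.3 TPM in KO vehicle, 2.53, 2.54 and 3.92 TPM in WT GW4064 and 2.66, 2.25 and 2.32 TPM in WT vehicle. Every KO library stood above every WT library, with means of 13.7 ± 0.970 TPM in KO and 2.7 ± 0.614 TPM in WT (SD, n = 6 each), a 5.08-fold ratio. The mean genotype difference was 2.17 ± 0.10 (limma adjusted p = 1.4e-07), and the differences were 2.29 ± 0.14 on vehicle and 2.05 ± 0.14 under GW4064. Of the other GAS2 family genes tested, Gas2 differed by -0.08 ± 0.07 and Gas2l1 by 0.16 ± 0.09, and neither was called in the mean genotype difference (limma adjusted p = 0.418 and 0.226). For Gas2 this was made up of 0.17 ± 0.10 on vehicle, not called, and -0.33 ± 0.10 under GW4064 (limma adjusted p = 0.0405). The call under GW4064 was lost with median-of-ratios scaling and when any 1 of 9 libraries was taken out (the 6 WT libraries, KO vehicle replicate 3 and KO GW4064 replicates 1 and 3, adjusted p up to 0.131).

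Slc5a8 had the smallest p-value of the 52 genes. It encodes the apical sodium-coupled monocarboxylate transporter of the proximal tubule, which takes lactate and related acids back from the filtrate. It lies 0.525 Mb from Nr1h4 (Entrez Gene 216225, 88885992 to 88929515, plus strand). Slc5a8 measured 172, 168 and 186 TPM in KO GW4064, 171, 163 and 155 TPM in KO vehicle, 316, 331 and 334 TPM in WT GW4064 and 360.5, 346 and 353 TPM in WT vehicle. All KO libraries were lower, with means of 169 ± 10.3 TPM in KO and 340.0 ± 16.2 TPM in WT (SD, n = 6 each) and a difference of -1.01 ± 0.03 (limma adjusted p = 7.58e-09). Over the 12 libraries, the genes whose log2 values followed those of Slc5a8 most closely were Dynlt1b and Gm3435 on chromosome 17 and Nnt on chromosome 13 (Pearson r = 0.991, 0.984 and 0.978). Dynlt1b, Gm3435 and Nnt were also lower in KO (-0.922 ± 0.054, -0.645 ± 0.046 and -1.183 ± 0.031 in the mean genotype difference). Slc5a8 was picked for its genotype p-value, so these r values largely restate a shared genotype difference. They rest on 12 libraries in 4 groups and are a description of likeness.

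Amdhd1 was near absent in KO. It encodes imidazolonepropionase, an enzyme of histidine breakdown, and lies 3.99 Mb from Nr1h4 on the other side (Entrez Gene 71761, 93523338 to 93540033, minus strand). Amdhd1 measured 0.204, 0 and 0 TPM in KO GW4064, 0.125, 0 and 0.0895 TPM in KO vehicle, 4.92, 5.65 and 6.72 TPM in WT GW4064 and 2.33, 3.66 and 2.94 TPM in WT vehicle. It is thus listed at 0 in 3 of 6 KO libraries and was at or under 0.204 TPM in the rest, while no WT library was under 2.33 TPM. The deposited coverage of the gene, the mean number of reads over a base, was 0 to 0.250 in KO and 2.67 to 10.4 in WT libraries. The fitted difference was -3.03 ± 0.16 (limma adjusted p = 3.65e-07), and its size follows the pseudocount: it was -4.78 with 0.1 and -2.27 with 1. In WT the GW4064 libraries were all above the vehicle libraries, a difference of 0.86 ± 0.22 that was not called (limma adjusted p = 0.0516). The other genes of histidine breakdown that could be tested were Uroc1, the urocanase, and Ftcd, which takes the last steps. Uroc1 was also lower in KO (-0.47 ± 0.07, limma adjusted p = 5.99e-04). Ftcd was lower (-0.31 ± 0.10, limma adjusted p = 0.0319), a call lost when any 1 of 7 libraries was left out (WT vehicle replicates 1 and 2, WT GW4064 replicates 1 and 2, KO vehicle replicates 1 and 2 and KO GW4064 replicate 1, adjusted p up to 0.0689) and under either rescaling. The list of 5 thus had 3 tested genes, 0 higher and 3 lower, beside 19.0% lower over all genes, with a median of -0.465 against -0.063. Amdhd1 itself is 1 of these 3, so the list adds only Uroc1 and the less firm Ftcd, and its share is a listing.

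Cfap54 encodes a part of the central apparatus of motile cilia. It lies 3.24 Mb from Nr1h4 (Entrez Gene 380654, 92775616 to 93081596, minus strand). Cfap54 measured 3.77, 3.40 and 2.99 TPM in KO GW4064, 3.72, 3.34 and 3.89 TPM in KO vehicle, 0.956, 1.04 and 0.956 TPM in WT GW4064 and 0.791, 0.991 and 0.843 TPM in WT vehicle. All KO libraries were higher, with means of 3.52 ± 0.336 TPM in KO and 0.929 ± 0.0930 TPM in WT (SD, n = 6 each), a 3.79-fold ratio, and a difference of 1.49 ± 0.10 (limma adjusted p = 2.04e-06). Stab2 encodes a scavenger receptor for hyaluronan on sinusoidal endothelium. Stab2, 2.45 Mb from Nr1h4 (Entrez Gene 192188, 86841210 to 87007942, minus strand), measured 1.07, 0.816 and 0.952 TPM in KO GW4064, 1.28, 1.13 and 1.45 TPM in KO vehicle, 3.10, 2.23 and 2.58 TPM in WT GW4064 and 2.36, 3.06 and 2.19 TPM in WT vehicle. The KO libraries were all lower, with a difference of -0.93 ± 0.12 (limma adjusted p = 2.3e-04). The endothelial pair Pecam1 and Kdr summed to 114 to 118 TPM in KO GW4064, 110 to 122 TPM in KO vehicle, 121 to 126 TPM in WT GW4064 and 120 to 129 TPM in WT vehicle. Of the pair, Kdr was lower in KO (-0.14 on the log2 scale, a call that ended under either rescaling) and Pecam1 was not called. The part of endothelial RNA content in the Stab2 difference was not tested.

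**Figure D3:**
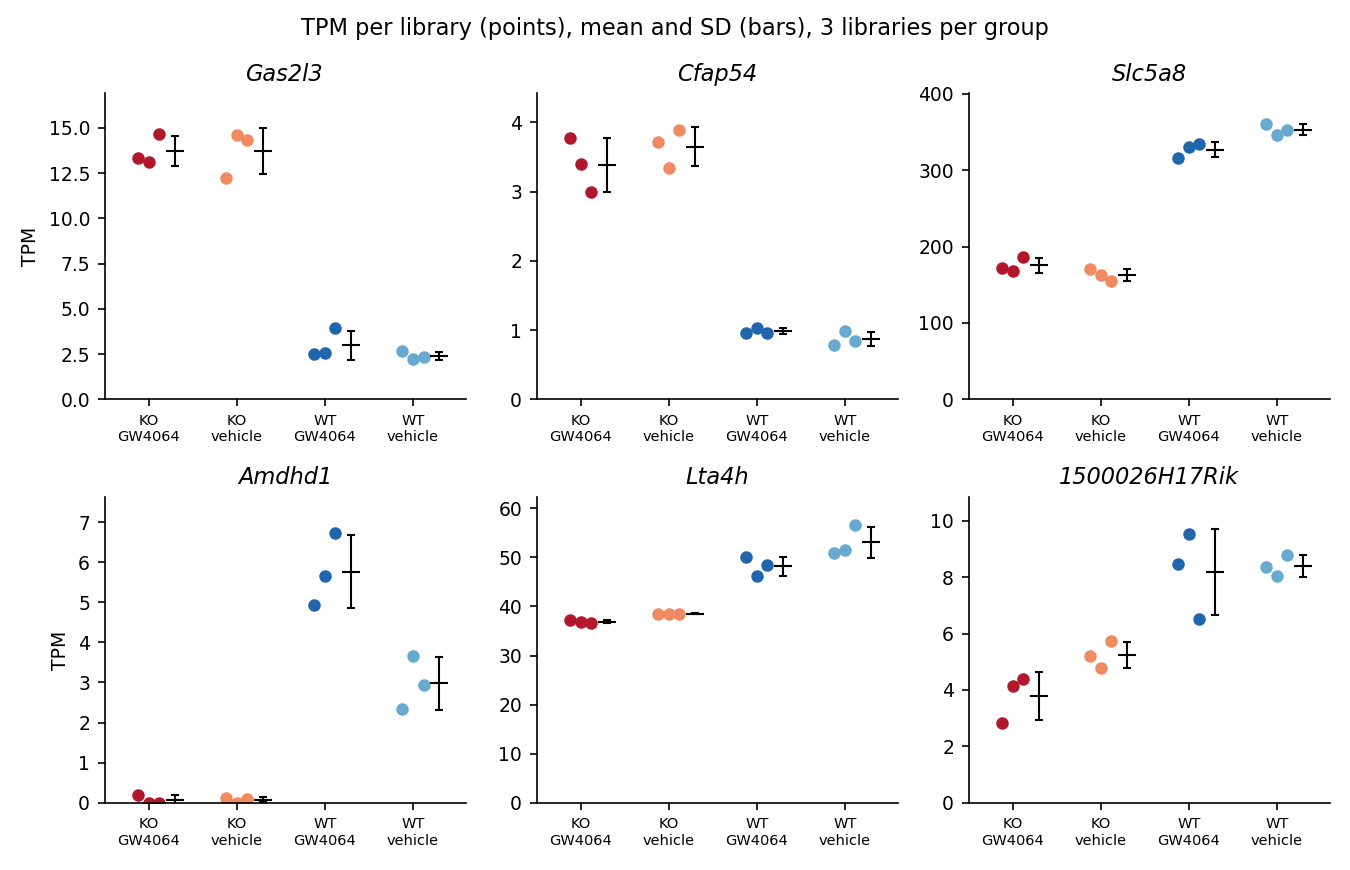
TPM per library (y axis, from 0) of 6 genes around Nr1h4 in the 4 groups (x axis, 3 libraries each); points are libraries, and the bars beside them are the mean and SD. Gas2l3 and Cfap54 are higher in all KO libraries, and Slc5a8, Amdhd1, Lta4h and 1500026H17Rik are lower in all KO libraries.

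The promoters of 4 of these genes are printed. Slc5a8, Gas2l3 and Amdhd1 have the smallest p-values of the 52 genes in the mean genotype difference, and Stab2 was added because its promoter holds a half-site. Each is the 250 bases before the start (RefSeq, GRCm38.p6), 5′ to 3′ on the gene's strand, and capitals mark the letters AGGTCA, the half-site that FXR and other nuclear receptors bind.
Gas2l3, chr10:89443968-89444217, minus strand: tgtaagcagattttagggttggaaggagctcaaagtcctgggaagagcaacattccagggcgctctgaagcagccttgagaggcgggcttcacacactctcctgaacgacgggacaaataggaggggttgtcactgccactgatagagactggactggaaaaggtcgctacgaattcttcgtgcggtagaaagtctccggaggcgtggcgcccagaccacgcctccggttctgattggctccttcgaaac
Amdhd1, chr10:93540034-93540283, minus strand: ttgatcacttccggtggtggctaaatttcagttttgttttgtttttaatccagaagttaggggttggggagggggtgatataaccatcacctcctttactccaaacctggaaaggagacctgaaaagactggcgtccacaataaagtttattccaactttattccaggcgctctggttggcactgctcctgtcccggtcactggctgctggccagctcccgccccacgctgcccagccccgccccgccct
Slc5a8, chr10:88885742-88885991, plus strand: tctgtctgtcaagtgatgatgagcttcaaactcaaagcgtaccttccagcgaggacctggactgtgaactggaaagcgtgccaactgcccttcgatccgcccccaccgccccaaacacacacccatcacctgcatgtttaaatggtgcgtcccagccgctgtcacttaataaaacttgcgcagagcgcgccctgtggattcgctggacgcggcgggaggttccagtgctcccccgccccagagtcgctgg
Stab2, chr10:87007943-87008192, minus strand: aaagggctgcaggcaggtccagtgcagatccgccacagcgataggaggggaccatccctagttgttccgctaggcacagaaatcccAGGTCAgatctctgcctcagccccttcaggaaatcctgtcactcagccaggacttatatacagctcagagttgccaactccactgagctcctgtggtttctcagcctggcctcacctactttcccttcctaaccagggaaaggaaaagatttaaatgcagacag
Of these, the Stab2 sequence holds 1 half-site and the other 3 hold none. On both strands of the promoter table, AGGTCA was found in 4 of 30 promoters of the called members (13.3%; Ntn4, Snrpf, Stab2 and Tmcc3) and in 14.0% of all 32851 promoters. The inverted repeat of FXR, AGGTCA and TGACCT with any 1 base between them, was in 0 of the 30 and in 2 of the 32851 (0.00609%). The table holds a promoter for 43 of the 52 members and 22 of the 28 called in a genotype comparison. A match or its absence in 250 bases is a description of these letters.

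Among enzymes and membrane proteins, Lta4h was lower in KO. It encodes leukotriene A4 hydrolase, which makes the inflammatory lipid leukotriene B4. Lta4h, 3.92 Mb from Nr1h4 (Entrez Gene 16993, 93453396 to 93484896, plus strand), measured 37.3, 36.8 and 36.6 TPM in KO GW4064, 38.6, 38.5 and 38.5 TPM in KO vehicle, 50.02, 46.1 and 48.4 TPM in WT GW4064 and 50.8, 51.6 and 56.7 TPM in WT vehicle. The groups did not overlap, and the difference was -0.42 ± 0.03 (limma adjusted p = 9.17e-06). Of the leukotriene synthesis list, Alox5ap and Ltc4s were also tested and not called (0.28 ± 0.14 and 0.29 ± 0.18, limma adjusted p = 0.178 and 0.261). Chpt1, cholinephosphotransferase of phosphatidylcholine synthesis, was the most abundant member, 950.0 kb from Nr1h4. Chpt1 measured 2313, 2047 and 2394 TPM in KO GW4064, 2428, 2632 and 2107 TPM in KO vehicle, 2204, 1983 and 2012 TPM in WT GW4064 and 2075, 2176 and 1927 TPM in WT vehicle. The groups overlapped and the difference was 0.17 ± 0.06 (limma adjusted p = 0.0655), which passed without KO vehicle replicate 3 or KO GW4064 replicate 2 and with median-of-ratios scaling (adjusted p down to 0.0176). In its CDP-choline route 2 of 7 tested genes were called, both higher in KO, a share near the 26.5% of all genes, with a list median of 0.13 against -0.063 over all genes. They were the choline kinase Chkb (0.25 ± 0.04, made up of 0.04 ± 0.06 on vehicle and 0.45 ± 0.06 under GW4064) and the CTP-using enzyme Pcyt1a (0.15 ± 0.05). Pcyt1a lost its call when any 1 of 6 libraries was left out (WT vehicle replicates 1 and 3, WT GW4064 replicates 1 and 3, KO vehicle replicate 2 and KO GW4064 replicate 2, limma adjusted p up to 0.0779).

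Genes of secreted and matrix proteins moved in both directions. Timp3, a matrix-bound inhibitor of metalloproteinases, lies 3.10 Mb from Nr1h4 (Entrez Gene 21859, 86300412 to 86349505, plus strand). Timp3 measured 955, 1090.3 and 874 TPM in KO GW4064, 1168, 999.6 and 1198 TPM in KO vehicle, 580.1, 598 and 638 TPM in WT GW4064 and 1022, 943 and 956 TPM in WT vehicle. The mean genotype difference was 0.44 ± 0.06 (limma adjusted p = 2.98e-04), made up of 0.20 ± 0.08 on vehicle, not called, and 0.68 ± 0.08 under GW4064, where the libraries did not overlap. Timp2, the other inhibitor tested, was not called in the mean genotype difference (-0.16 ± 0.07, limma adjusted p = 0.106). Its differences were 0.02 ± 0.09 under GW4064, not called, and -0.34 ± 0.09 on vehicle (limma adjusted p = 0.0387), a call lost under either rescaling and without WT vehicle replicate 1 or 3, WT GW4064 replicate 1 or KO vehicle replicate 1 or 3 (adjusted p up to 0.124). Ntn4 encodes netrin-4, a basement membrane protein. Ntn4 measured 65.4, 73.7 and 71.1 TPM in KO GW4064, 75.8, 67.1 and 74.9 TPM in KO vehicle, 75.3, 82.4 and 86.1 TPM in WT GW4064 and 81.9, 88.0 and 87.4 TPM in WT vehicle. Its difference was -0.23 ± 0.05 (limma adjusted p = 0.00449), with overlap of 1 KO library with 1 WT library.

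Of genes for RNA processing, mitochondrial transcription and noncoding RNA, Snrpf, Mterf2 and 1500026H17Rik were lower in KO and Gm15915 was higher. Snrpf encodes Sm protein F of the spliceosome core. Snrpf, 4.05 Mb from Nr1h4, measured 15.6, 14.0 and 15.2 TPM in KO GW4064, 16.4, 11 and 14.4 TPM in KO vehicle, 19.7, 19.2 and 23.4 TPM in WT GW4064 and 21.3, 21.9 and 25.4 TPM in WT vehicle. No KO library reached a WT library, with a difference of -0.58 ± 0.09 (limma adjusted p = 8.19e-04). Mterf2 belongs to the mitochondrial transcription termination factor family. Mterf2, 4.33 Mb from Nr1h4, measured 8.19, 9.39 and 9.50 TPM in KO GW4064, 7.36, 6.52 and 8.20 TPM in KO vehicle, 12, 10.8 and 10.4 TPM in WT GW4064 and 14.4, 11.9 and 14.9 TPM in WT vehicle. The difference was -0.57 ± 0.08 (limma adjusted p = 3.17e-04), and all KO libraries were lower. It was made up of -0.86 ± 0.11 on vehicle (limma adjusted p = 8.9e-04) and -0.28 ± 0.11 under GW4064, not called (limma adjusted p = 0.0993). 1500026H17Rik is a long noncoding RNA 153 kb from Nr1h4 (Entrez Gene 69002, 89686363 to 89700866, plus strand). 1500026H17Rik measured 2.82, 4.13 and 4.39 TPM in KO GW4064, 5.19, 4.79 and 5.73 TPM in KO vehicle, 8.47, 9.52 and 6.51 TPM in WT GW4064 and 8.35, 8.05 and 8.80 TPM in WT vehicle. All KO libraries were lower, with means of 4.51 ± 1.00 TPM in KO and 8.28 ± 1.00 TPM in WT (SD, n = 6 each) and a difference of -0.83 ± 0.11 (limma adjusted p = 3.29e-04). Gm15915 is a long noncoding RNA inside the Ntn4 span on the opposite strand. Gm15915 measured 0.181, 0.875 and 1.73 TPM in KO GW4064, 1.01, 1.18 and 0.308 TPM in KO vehicle, 0.170, 0 and 0.285 TPM in WT GW4064 and 0.0971, 0.0831 and 0 TPM in WT vehicle. It is listed at 0 in 2 WT libraries, the groups overlapped, and the difference of 1.09 ± 0.30 (limma adjusted p = 0.0211) was not called without KO vehicle replicate 2 (adjusted p = 0.0537).

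Of the cytoskeleton and cell division genes, Nedd1 and Tmpo were lower and Fgd6 higher in KO. Nedd1 recruits gamma-tubulin to centrosomes. Nedd1 measured 21.1, 19.2 and 20.3 TPM in KO GW4064, 21.5, 19.8 and 19.3 TPM in KO vehicle, 23.3, 21.0 and 21.8 TPM in WT GW4064 and 24.2, 23.8 and 22.9 TPM in WT vehicle. The difference was -0.17 ± 0.04 (limma adjusted p = 0.014), a call lost under either rescaling (adjusted p = 0.086 and 0.0911). Tmpo encodes the lamina-associated protein LAP2. Tmpo measured 60.1, 64.0 and 65.5 TPM in KO GW4064, 63.4, 58.3 and 65.6 TPM in KO vehicle, 71.1, 69.7 and 74.9 TPM in WT GW4064 and 74.9, 70.4 and 68.1 TPM in WT vehicle. The genotypes did not overlap and the difference was -0.19 ± 0.04 (limma adjusted p = 0.00566). Fgd6 encodes an exchange factor for the small GTPase Cdc42. Fgd6 measured 7.58, 7.64 and 8.40 TPM in KO GW4064, 7.69, 7.83 and 6.93 TPM in KO vehicle, 5.97, 5.28 and 6.08 TPM in WT GW4064 and 6.40, 4.78 and 6.69 TPM in WT vehicle. The KO libraries were all higher, with a difference of 0.37 ± 0.09 (limma adjusted p = 0.00859). Cdk17, a cyclin-dependent kinase of the PCTAIRE group, measured 16.6, 15.8 and 15.4 TPM in KO GW4064, 15.2, 14.6 and 13.5 TPM in KO vehicle, 18.0, 16.4 and 17.8 TPM in WT GW4064 and 16.1, 17.5 and 17.6 TPM in WT vehicle. Its difference of -0.18 ± 0.05 (limma adjusted p = 0.0177) was not called under either rescaling (adjusted p = 0.095 and 0.109).

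Scyl2, a pseudokinase of clathrin-coated vesicles, is the nearest member on the higher-coordinate side, 106 kb away (Entrez Gene 213326, 89640107 to 89686285, minus strand). Scyl2 measured 57.9, 53.8 and 55.3 TPM in KO GW4064, 57.8, 57.8 and 54.4 TPM in KO vehicle, 68.9, 72.3 and 69.7 TPM in WT GW4064 and 59.3, 58.8 and 56.4 TPM in WT vehicle. The mean genotype difference was -0.19 ± 0.03 (limma adjusted p = 0.00127), made up of -0.04 ± 0.04 on vehicle and -0.33 ± 0.04 under GW4064. Its relative Scyl3 was not called (0.01 ± 0.04). Gnptab, which starts the mannose 6-phosphate tag of lysosomal enzymes, differed by -0.18 ± 0.05 (means of 22.1 ± 1.71 TPM in KO and 25 ± 1.28 TPM in WT, SD, n = 6 each, limma adjusted p = 0.0155) and was not called under either rescaling (adjusted p = 0.0709 and 0.0699). Of the 5 genes of that tag 2 were lower and 0 higher, beside 19.0% lower over all genes, and the list median was -0.041. Besides Gnptab the lower one was the receptor gene Igf2r (-0.29 ± 0.04, limma adjusted p = 1.2e-04). Apaf1, the scaffold of the apoptosome, measured 5.82, 7.0 and 6.41 TPM in KO GW4064, 6.73, 5.90 and 6.43 TPM in KO vehicle, 8.35, 8.01 and 8.21 TPM in WT GW4064 and 8.33, 7.60 and 7.16 TPM in WT vehicle. The genotypes did not overlap, with a difference of -0.30 ± 0.07 (limma adjusted p = 0.00691).

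Fbxo7 and Dram1 had the least firm calls of the 26. Fbxo7 encodes an F-box protein of ubiquitin ligases. Fbxo7 measured 38.6, 77.3 and 72.7 TPM in KO GW4064, 77.0, 75.5 and 77.7 TPM in KO vehicle, 90.3, 96.7 and 97.0 TPM in WT GW4064 and 81.2, 91.5 and 83.7 TPM in WT vehicle. KO GW4064 replicate 1 stood apart from the other KO libraries, and all KO libraries were below all WT libraries. The difference was -0.40 ± 0.14 (limma adjusted p = 0.0492) and -0.24 without that library (adjusted p = 0.00129). It was not called when any 1 of the 6 WT or the 3 KO vehicle libraries was removed (adjusted p up to 0.093), nor under either rescaling (adjusted p = 0.104 and 0.0942). Dram1, a lysosomal membrane protein gene induced by p53, differed by -0.39 ± 0.13 (means of 6.28 ± 0.771 TPM in KO and 8.49 ± 1.82 TPM in WT, SD, n = 6 each, limma adjusted p = 0.0434). It was not called when any 1 of 9 libraries was left out (WT vehicle replicates 1 and 3, WT GW4064 replicates 1 and 3, the 3 KO vehicle libraries and KO GW4064 replicates 2 and 3, adjusted p up to 0.0985). Nor was it called under either rescaling (adjusted p = 0.0759 and 0.0819).

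The remaining called members were Ikbip, Elk3, Syn3, Ttc41 and Tmcc3. Ikbip, which interacts with the kinase IKK-beta, measured 22.4, 21.5 and 18.1 TPM in KO GW4064, 21.9, 18.5 and 21.5 TPM in KO vehicle, 26.1, 25.2 and 27.3 TPM in WT GW4064 and 28.1, 23.5 and 28.0 TPM in WT vehicle. No KO library reached a WT library (-0.35 ± 0.07, limma adjusted p = 0.00355). Elk3, an ETS-family repressor, measured 10.8, 11.2 and 10.1 TPM in KO GW4064, 10.1, 10.1 and 11.3 TPM in KO vehicle, 12.6, 11.8 and 12.4 TPM in WT GW4064 and 14.9, 12.2 and 14.2 TPM in WT vehicle. The genotypes did not overlap here either (-0.28 ± 0.06, limma adjusted p = 0.0056). Syn3, synapsin III, measured 4.10, 4.70 and 4.79 TPM in KO GW4064, 4.67, 3.12 and 4.87 TPM in KO vehicle, 6.98, 6.13 and 7.08 TPM in WT GW4064 and 6.27, 7.82 and 5.77 TPM in WT vehicle. All KO libraries were lower in TPM (-0.56 ± 0.11, limma adjusted p = 0.00363). The deposited coverage of Syn3 was low for its TPM, at 0.546 to 0.902 in KO and 0.767 to 1.25 in WT libraries, which overlap. Ttc41, at similar TPM, had a coverage of 2.645 to 6.145 over the same libraries. Why the TPM and coverage of Syn3 differ was not tested, and its call rests on TPM. Ttc41 measured 4.03, 2.69 and 3.88 TPM in KO GW4064, 2.85, 3.18 and 3.57 TPM in KO vehicle, 7.36, 5.30 and 5.69 TPM in WT GW4064 and 3.54, 4.83 and 4.02 TPM in WT vehicle. Its groups overlapped on vehicle and not under GW4064 (-0.52 ± 0.12, limma adjusted p = 0.00931). Tmcc3, a transmembrane and coiled-coil protein gene at the far edge of the window, measured 36.2, 29.6 and 23.8 TPM in KO GW4064, 26.5, 31.4 and 29.3 TPM in KO vehicle, 20.2, 24.7 and 20.9 TPM in WT GW4064 and 23.0, 24.9 and 24.4 TPM in WT vehicle. It was higher in KO (0.34 ± 0.09, limma adjusted p = 0.0177), with overlap between the genotypes.

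Some of these genes share their DNA with another gene. The spans of 11 members overlap that of another gene, and 8 of the 11 were called in the mean genotype difference. The share was 26 of 52 over all members and 26.5% over all genes, and a link between overlap and calls was not tested. Fbxo7 and Timp3 overlap Syn3 on the opposite strand, and Ntn4 overlaps Gm15915. The library kit keeps strand, but whether strand was used in the authors' counting is not given in the sources used here, so the values of such pairs are uncertain.

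Several close neighbours of Nr1h4 were not called in the mean genotype difference. Within 1 Mb, 4 of 11 members were called (Gas2l3, Slc5a8, Scyl2 and 1500026H17Rik). Arl1, a Golgi GTPase, measured 156, 148 and 139.8 TPM in KO GW4064, 153, 139 and 153 TPM in KO vehicle, 153, 141 and 153 TPM in WT GW4064 and 161, 138 and 148 TPM in WT vehicle. Its groups overlapped, with a difference of -0.01 ± 0.04 (limma adjusted p = 0.918). Actr6, an actin-related protein of a chromatin remodeller, measured 17.5, 19.1 and 19.7 TPM in KO GW4064, 19.9, 19.3 and 21.5 TPM in KO vehicle, 16.5, 19.2 and 17.6 TPM in WT GW4064 and 14.8, 17.8 and 19.2 TPM in WT vehicle. It differed by 0.16 ± 0.07 (limma adjusted p = 0.11), a value that passed under either rescaling (adjusted p = 0.0429 and 0.0422), and 0 of 4 genes of its list were called in the mean genotype difference. Uhrf1bp1l measured 80.8, 81.1 and 73.7 TPM in KO GW4064, 82.7, 80.6 and 80.5 TPM in KO vehicle, 81.1, 84.4 and 85.6 TPM in WT GW4064 and 82.3, 85.5 and 80.5 TPM in WT vehicle. Its KO and WT libraries overlapped (-0.06 ± 0.03, limma adjusted p = 0.196). Ano4, of the anoctamin family, measured 1.30, 1.32 and 1.76 TPM in KO GW4064, 1.20, 1.42 and 1.82 TPM in KO vehicle, 1.64, 0.959 and 1.26 TPM in WT GW4064 and 1.38, 0.836 and 1.46 TPM in WT vehicle. At this low level the groups overlapped (0.17 ± 0.16, limma adjusted p = 0.446). Gm4925, a gene model, measured 0.738, 1.01 and 0.751 TPM in KO GW4064, 1.39, 0.817 and 0.822 TPM in KO vehicle, 1.74, 0.957 and 2.27 TPM in WT GW4064 and 1.07, 1.13 and 1.37 TPM in WT vehicle. Its difference of -0.41 ± 0.18 was not called (limma adjusted p = 0.111) except without WT GW4064 replicate 2 (adjusted p = 0.0326). Utp20 is described with GW4064.

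In all, 28 members (53.8%) were called in at least 1 of the 3 genotype comparisons and 24 in none. The same share over all genes was not computed, and the mean genotype difference alone called 26.5% of them. The 28 are thus a listing. Those 24 ranged from -0.41 (Gm4925) to 0.20 (Btbd11) in the mean genotype difference, apart from Mir1931. The precursor of the microRNA Mir1931, inside Cdk17 on the same strand, measured 0.178, 1.17 and 3.82 TPM in KO GW4064, 0.627, 2.39 and 1.41 TPM in KO vehicle, 0.130, 4.72 and 4.26 TPM in WT GW4064 and 4.37, 5.70 and 2.47 TPM in WT vehicle. It varied widely within groups (-0.92 ± 0.57, limma adjusted p = 0.258) and, of the 12 removals, passed only in that of WT GW4064 replicate 1 (adjusted p = 0.0421). The pseudogene 1810014B01Rik differed by -0.21 ± 0.09 (limma adjusted p = 0.102), a value that passed without WT vehicle replicate 2 (adjusted p = 0.031). Hsp90b1, the endoplasmic reticulum chaperone GRP94, was among the abundant uncalled members, at means of 337 ± 33.3 TPM in KO and 378 ± 25.1 TPM in WT (SD, n = 6 each) and a difference of -0.17 ± 0.07 (limma adjusted p = 0.0935) that passed without KO vehicle replicate 1. Of 10 chaperone genes of that compartment 5 were lower in KO and 0 higher, beside 19.0% lower over all genes, with a median of -0.17 against -0.063 over all genes: Calr, Dnajb11, Pdia3, Pdia4 and Pdia6. Pdia3 and Pdia4 were not called under either rescaling. Pdia4 was not called without WT GW4064 replicate 1 (limma adjusted p = 0.0501), and Pdia3 was not called without WT vehicle replicate 1 or 3, WT GW4064 replicate 1 or KO GW4064 replicate 3 (adjusted p up to 0.0693). Of 8 tested genes of the NF-Y and RFX transcription factors, none of them a member, 3 were lower (Nfya, Nfyc and Rfx3, the last not with quantile scaling) and 0 higher, beside 19.0% lower over all genes, with a median of -0.174.

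The members were then placed by distance. In the mean genotype difference the called genes were 4 of 11 at 0 to 1 Mb, 5 of 8 at 1 to 2 Mb, 3 of 6 at 2 to 3 Mb, 8 of 13 at 3 to 4 Mb and 6 of 14 at 4 to 5 Mb. Each of these bins holds under 20 genes. Outside the window the count was 31 of 148 at 5 to 10 Mb (20.9%), 32 of 94 at 10 to 20 Mb (34.0%), 71 of 242 at 20 to 40 Mb (29.3%) and 42 of 166 farther away (25.3%). On the other chromosomes it was 3633 of 13781 (26.4%). Differences of at least 2-fold, called or not, were in 5 of the 52 members and 1 of the 148 genes at 5 to 10 Mb. The called members were unevenly spread over the sides of Nr1h4: 10 of 30 with lower coordinates (2 higher, 8 lower in KO) and 16 of 22 with higher coordinates (4 higher, 12 lower). From Apaf1 to Gm15915, 12 of 13 successive members were called, 2 higher and 10 lower, with Mir1931 the exception. That stretch was picked after its values were seen, and it held 9 calls on vehicle and 8 under GW4064.

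**Figure D4:**
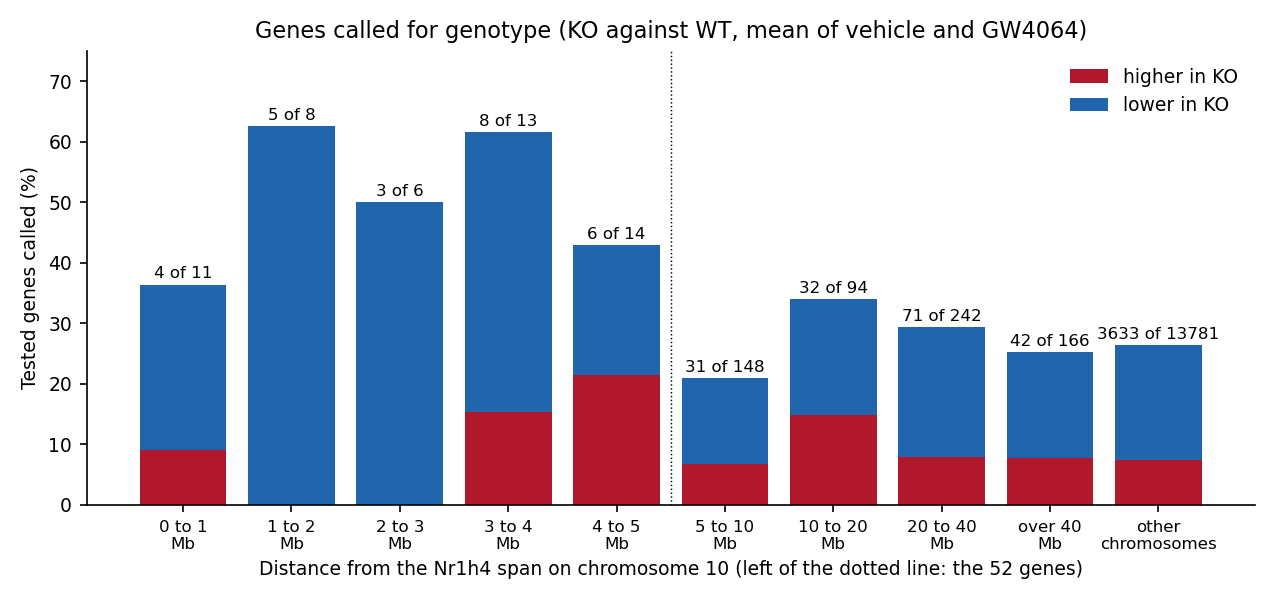
Share of tested genes called in the mean genotype difference (y axis, percent) by distance from the Nr1h4 span on chromosome 10, with the other chromosomes at the right (x axis). Bars are split into genes higher (red) and lower (blue) in KO, and the numbers above give called and tested genes. The bars inside 5 Mb stand between 36.4% and 62.5%, and those outside between 20.9% and 34.0%.

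GW4064 moved few of these genes. In WT 3 of 52 members were called (5.77%), 1 higher and 2 lower, against 4.8% of all genes, and 8 had an unadjusted p under 0.05. In KO 0 members were called by limma, against 0.0138% of all genes, and 6 had an unadjusted p under 0.05. Without KO GW4064 replicate 2 the KO count was 1. The interaction, the GW4064 difference in KO minus that in WT, was called for 2 members (3.85%), against 3.19% of all genes, and 7 had an unadjusted p under 0.05. That count was 1 without WT vehicle replicate 3, WT GW4064 replicate 1, WT GW4064 replicate 2 or KO vehicle replicate 1.

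Timp3, whose libraries are given above, was lower with GW4064 in WT, with means of 605 ± 29.7 TPM under GW4064 and 974 ± 42.4 TPM on vehicle (SD, n = 3). The difference was -0.69 ± 0.08 (limma adjusted p = 7.3e-04). In KO the means were 973 ± 109.5 TPM under GW4064 and 1122 ± 107 TPM on vehicle, a difference of -0.21 ± 0.08 that was not called (limma adjusted p = 0.4). The interaction of 0.48 ± 0.12 was not called (limma adjusted p = 0.0549). It passed without KO GW4064 replicate 3 (adjusted p = 0.0368), with quantile scaling (adjusted p = 0.0207) and when 1 TPM was required in all 12 libraries (adjusted p = 0.0458).

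Utp20 encodes a subunit of the small-subunit processome, which makes ribosomes. Utp20, 627 kb from Nr1h4 (Entrez Gene 70683, 88746607 to 88826814, minus strand), measured 36.8, 33.6 and 34.9 TPM in KO GW4064, 31.8, 26.3 and 32.0 TPM in KO vehicle, 26.0, 28.2 and 26.4 TPM in WT GW4064 and 35.1, 33.2 and 36.2 TPM in WT vehicle. It was lower with GW4064 in WT (-0.37 ± 0.08, limma adjusted p = 0.0169), and the KO difference of 0.23 ± 0.08 was not called (limma adjusted p = 0.315). The interaction was 0.59 ± 0.11 (limma adjusted p = 0.0139) and was called in each removal of a library. The WT call ended without WT vehicle replicates 1 or 3 or WT GW4064 replicates 1 or 3 (adjusted p up to 0.0745). By genotype, Utp20 was higher in KO under GW4064 (0.38 ± 0.08, limma adjusted p = 0.00492) and differed by -0.22 ± 0.08 on vehicle, not called. Its mean genotype difference of 0.08 ± 0.05 was not called (limma adjusted p = 0.284) except without KO vehicle replicate 2 (adjusted p = 0.0467).

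Scyl2 was higher with GW4064 in WT (0.27 ± 0.04, limma adjusted p = 0.00437), with means of 70.3 ± 1.80 TPM under GW4064 and 58.2 ± 1.54 TPM on vehicle (SD, n = 3). In KO the means were 55.7 ± 2.08 TPM under GW4064 and 56.6 ± 1.97 TPM on vehicle, a difference of -0.02 ± 0.04 (limma adjusted p = 0.894). The interaction was -0.30 ± 0.06 (limma adjusted p = 0.0268). It was not called without WT vehicle replicate 3, WT GW4064 replicates 1 or 2, KO vehicle replicate 1 or KO GW4064 replicate 3 (adjusted p up to 0.074), nor without the variance trend (adjusted p = 0.0539).

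**Figure D5:**
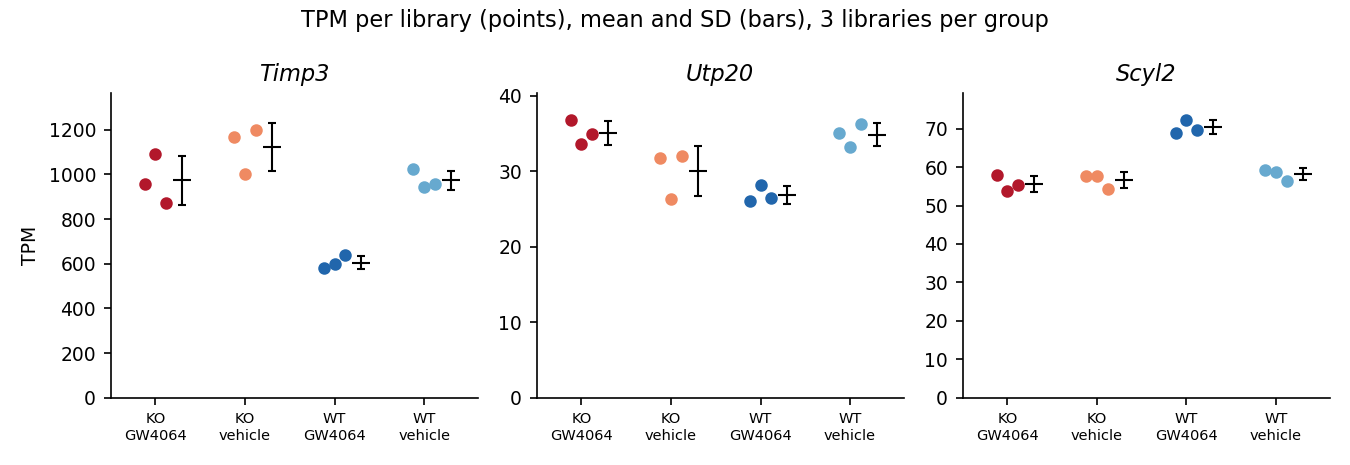
TPM per library (y axis, from 0) of Timp3, Utp20 and Scyl2 in the 4 groups (x axis, 3 libraries each); points are libraries and bars the mean and SD. In WT, Timp3 and Utp20 are lower and Scyl2 higher under GW4064 than on vehicle, and the KO groups overlap for Timp3 and Scyl2.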

How the data were processed

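Total RNA of whole kidney was made into 12 libraries with a TruSeq Stranded Total RNA Gold kit, per the labels' protocols. HISAT2, StringTie, Cufflinks and the mm10 build are named in the submitters' processing notes, without versions or roles, and the annotation was not stated there or in the labels. The deposited tables hold, per gene and library, TPM and FPKM values made by the authors, and a coverage signal (mean reads per base). Entries of one identifier in a library were summed, and no such identifier lay in the window. Names, positions and promoters came from RefSeq tables (GRCm38.p6), which matched 24462 of 24532 identifiers. No read counts were used, so intervals from counts are not given.

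The 14488 genes with at least 1 TPM in 3 libraries were fitted on log2(TPM + 0.5) with limma 3.58.1 in R 4.3.3, with a variance trend, 1 mean per group over all 12 libraries, and Benjamini-Hochberg adjustment over all genes in each of 6 comparisons, called under 0.05. The fit was tested on simulated data. Members and gene lists were chosen with earlier results of these data known. Full values are given for members called in the mean genotype difference and at least 1 separate comparison, and for members within 1 Mb. Others are named by role or as the largest uncalled differences. Results of some genes are not reported here. Alternatives were pseudocount, filter, scaling, FPKM, variance model, array weights, a replicate block, window size and removal of each library. Tables and figures were made with Python 3.11.15, pandas 2.3.3, numpy 2.4.6 and matplotlib 3.10.9.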

Additional observations from a re-analysis of the deposited data

Results flagged for a closer look

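The GW4064 difference of 2 genes near Nr1h4 differed between the genotypes by the interaction test in limma. For Utp20 the GW4064 difference in KO minus that in WT was 0.59 on the log2 scale (limma adjusted p = 0.0139, n = 3 libraries per group). For Scyl2 it was -0.30 (limma adjusted p = 0.0268), a call that ended when any 1 of 5 libraries was left out (WT vehicle replicate 3, WT GW4064 replicates 1 and 2, KO vehicle replicate 1 and KO GW4064 replicate 3, adjusted p up to 0.074). These are 3.85% of the 52 members, against 3.19% of all genes.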

How the results depend on the processing

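The counts of called members on vehicle (16), under GW4064 (20), in the mean genotype difference (26), with GW4064 in WT (3) and in KO (0) and in the interaction (2) were recomputed. On vehicle quantile scaling gave 10, and without the variance trend the interaction gave 1. A window of 2.5 Mb each side (20 members) gave 6 on vehicle, 9 under GW4064 and 10 in the mean genotype difference, since it holds fewer genes. A window of 10 Mb (200 members) gave 33, 44 and 57, with 6 for GW4064 in WT and 5 for the interaction. As shares of the 200 members, 33, 44 and 57 are 16.5%, 22.0% and 28.5%. Over all genes the shares were 12.9% on vehicle, 18.5% under GW4064 and 26.5% in the mean genotype difference. The counts thus rose with the wider window while the share in the mean genotype difference came near that of all genes. Leaving out 1 library at a time gave 7 to 18 on vehicle, 11 to 20 under GW4064, 24 to 27 in the mean genotype difference, 2 to 4 for GW4064 in WT, 0 to 1 for GW4064 in KO and 1 to 3 for the interaction. The cause of these moves was not tested. Of the 26 calls in the mean genotype difference, 17 were kept under every alternative with the 5 Mb window. Requiring 1 TPM in all 12 libraries left Stab2, Cfap54, Amdhd1 and Gm15915 untested, and the other lost calls were Fbxo7, Dram1, Gnptab, Nedd1 and Cdk17. Over single genes, 2395 alternative values kept direction and call, 203 lost a call, 24 gained one and 0 reversed. A fit of only the groups compared was not run for the mean genotype difference or the interaction, which use all groups.

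The replicate numbers do not pair the samples: correlations of same-numbered deviations were -0.075 to 0.083. With the replicate block the counts were 15 on vehicle, 18 under GW4064 and 27 in the mean genotype difference. Depth limits low genes such as Gm15915, Ano4 and Mir1931. The TPM of Syn3 is uncertain because its coverage was low for that TPM.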
